A study of Mus musculus with 6 samples.

Results

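The tumour necrosis factor (TNF) superfamily of ligands and the superfamily of receptors that bind them were followed in mouse bone marrow-derived macrophages given the Hsp70 inhibitor JG-98. Members were chosen by gene symbol: symbols beginning with Tnfsf or Tnfrsf and a digit, together with Tnf, Lta, Ltb, Ltbr, Cd40, Fas, Fasl and Cd27. The choice used no measured value and found 39 genes, each on 1 probe set, of the 25206 probe sets on the array. They are 14 ligands, 24 receptors and Tnfsf13os, a transcript from the strand opposite Tnfsf13 that the symbol pattern also takes. Tnfsf12 was not analysed here.

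The study compared 3 control samples, labelled as treated with none, with 3 samples that had received JG-98 at 0.3 micromole for 16 hours, 1 single-colour Affymetrix array each. JG-98 blocks Hsp70, the chaperone that binds unfolded stretches of other proteins, and the comparison asks how this alters macrophage transcripts. The labels give no vehicle for the controls, no volume for the dose, and no strain, age or genotype, and do not say whether replicates came from separate animals or cultures. A p-value here measures only how these samples vary, and that variation may be technical. All macrophage markers examined that are on the array, Csf1r, Adgre1, Cd68, Itgam, Fcgr1, Mertk and Cd14, had bright signals, with means over the 6 arrays of 8.36 to 12.0 on the log2 scale.

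Ligands of the TNF superfamily are mostly trimers anchored in the plasma membrane, and some, Tnf among them, are released by shedding. Each trimer gathers its receptors, whose cytoplasmic tails either hold a death domain, which can recruit adaptors of cell death, or bind TRAF adaptors that lead to NF-kB and MAP kinases. Decoy receptors bind ligand without passing on a death signal. Macrophages are a main source of Tnf and carry both of its receptors, while many other ligands and receptors of the superfamily are best known from lymphocytes.

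No member passed the test across all probe sets. In limma 0 of 39 had a Benjamini-Hochberg adjusted p under 0.05, against 0.0397% of all probe sets (0.0317% higher and 0.00793% lower with JG-98), and the smallest adjusted p of a member was 0.38. At an unadjusted p under 0.05 there were 4 members, with Tnf and Tnfrsf21 higher and Tnfsf13b and Fas lower with JG-98. That is 10.3% of the members, and 8.32% of all probe sets had such a p. Members on the higher side were 2 of 39, against 3.84% of all probe sets, and on the lower side 2 of 39, against 4.48%. Differences between the group means ran from -0.30 to 0.39 on the log2 scale. None of the 39 exceeded 0.5 in size, and 222 of all 25206 probe sets did. The median size of a difference, whatever its sign, was 0.11 among members and 0.088 among all probe sets. The median member differed by 0.04 and the median probe set by 0.0008, and after each array was centred on its median these were 0.02 and -0.02. The 4 members are described first, then the others by their role. Every difference is JG-98 minus control with its moderated SE, and every group has 3 arrays.

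Tnf, the macrophage cytokine that gives the family its name (Entrez gene 21926), lay at 7.96, 7.92 and 7.998 in the controls and at 8.20, 8.18 and 8.28 with JG-98. All JG-98 values were above all control values, and both groups were tight, with SDs of 0.037 and 0.051. The difference was 0.26 ± 0.065, a 1.20-fold higher level, with a 95% interval of 0.11 to 0.42 (limma unadjusted p = 0.0057, adjusted p = 0.38). It was 0.23 without JG-98 replicate 3, an array that stands apart from the other 5. Tnf passed in 1 of the 15 settings tried, the fit in which the variance follows intensity (limma adjusted p = 0.044), and its adjusted p ran from 0.044 to 0.79 over all of them. In that fit 254 probe sets passed, where the fit used throughout called 10. In samples of many cells, a different number of cells making a transcript and a different amount of it per cell cannot be told apart.

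Tnfsf13b, or BAFF, the survival factor of B cells that myeloid cells make (Entrez gene 24099), was at 5.59, 5.74 and 5.68 in controls and 5.19, 5.42 and 5.49 with JG-98. The groups did not overlap. The difference was -0.30 ± 0.098 (limma unadjusted p = 0.019, adjusted p = 0.50), and -0.37 without JG-98 replicate 3. Tnfrsf21, the death domain receptor DR6 (Entrez gene 94185), was at 7.48, 7.49 and 7.59 in controls and 7.72, 7.68 and 7.77 with JG-98, again without overlap. The difference was 0.20 ± 0.068 (limma unadjusted p = 0.021, adjusted p = 0.51), and 0.18 without JG-98 replicate 3. Fas, the receptor through which Fas ligand triggers apoptosis (Entrez gene 14102), was at 5.96, 5.75 and 5.84 in controls and 5.60, 5.74 and 5.30 with JG-98. Here the nearest values of the groups almost touched, and JG-98 replicate 3 was the lowest array. The difference was -0.30 ± 0.13 (limma unadjusted p = 0.0499, adjusted p = 0.60) and was -0.18 without JG-98 replicate 3 (limma unadjusted p = 0.10), so that array moved it by over 1.5 times. The unadjusted p of Fas was under 0.05 in 7 of the 15 settings, with a range of 0.020 to 0.14, and was 0.071 after median centring. The same count of settings was 15 for Tnf, 12 for Tnfsf13b and 11 for Tnfrsf21, and the settings reuse the same arrays.

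**Figure D1:**
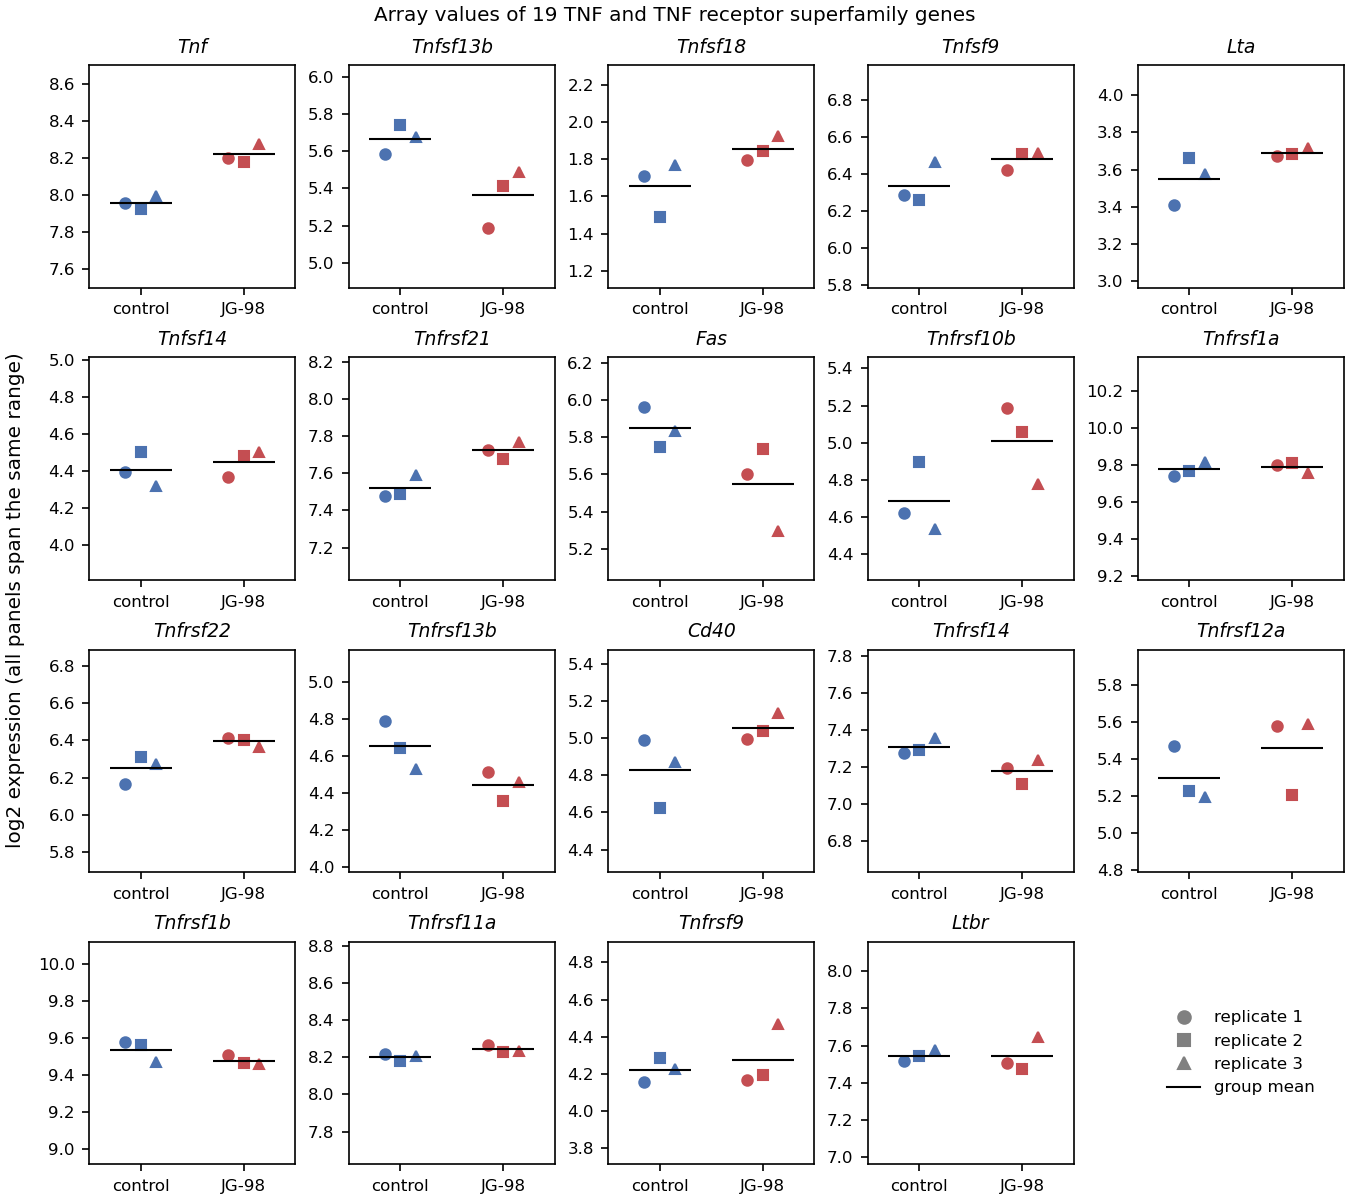
Log2 expression (vertical axes, of equal span in every panel) of 19 members on the 3 control arrays (blue) and 3 JG-98 arrays (red), with symbols for the replicate number and a line at the group mean. The groups of Tnf lie apart, at 7.92 to 7.998 and 8.18 to 8.28, whereas the arrays of Tnfrsf1a interleave.

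The letters before the transcription start of these 4 genes are shown because they are the members at an unadjusted p under 0.05 and differed in both directions. Each is the 250 bases before the start, 5′ to 3′ on the gene's strand, from RefSeq's GRCm38.p6 table, and the starts of Tnf and Tnfrsf21 lie on one chromosome. Capitals mark matches on either strand to an NF-kB pattern, which was 3 G, any 5 bases and 2 C, or to the TATA box letters TATAAA. They also mark the AP-1 pattern TGANTCA and GAANNTTC, the core of a heat shock element, and no matches overlapped another pattern's. TGATGCAA (a C/EBP-ATF element of stress genes) and TGACGTCA (a cAMP response element) were searched too. The windows are chr17:35202008-35202257 (minus strand) for Tnf, chr17:43016305-43016554 (plus strand) for Tnfrsf21, chr8:10006217-10006466 (plus strand) for Tnfsf13b at the more upstream of its 2 listed starts, and chr19:34290409-34290658 (plus strand) for Fas.
Tnf: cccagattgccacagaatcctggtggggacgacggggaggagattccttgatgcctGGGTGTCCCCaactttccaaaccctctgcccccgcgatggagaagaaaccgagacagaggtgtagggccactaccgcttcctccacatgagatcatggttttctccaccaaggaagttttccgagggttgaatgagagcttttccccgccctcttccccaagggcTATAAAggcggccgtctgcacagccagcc
Tnfrsf21: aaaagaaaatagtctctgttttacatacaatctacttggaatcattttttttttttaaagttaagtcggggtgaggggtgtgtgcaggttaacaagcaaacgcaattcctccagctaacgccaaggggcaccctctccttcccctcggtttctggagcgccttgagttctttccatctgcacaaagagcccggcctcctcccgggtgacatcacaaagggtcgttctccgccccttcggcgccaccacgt
Tnfsf13b: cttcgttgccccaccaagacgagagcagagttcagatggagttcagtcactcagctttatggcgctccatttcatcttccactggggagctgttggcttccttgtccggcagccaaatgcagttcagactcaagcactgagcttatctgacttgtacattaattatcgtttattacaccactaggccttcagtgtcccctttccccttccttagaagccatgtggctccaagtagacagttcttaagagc
Fas: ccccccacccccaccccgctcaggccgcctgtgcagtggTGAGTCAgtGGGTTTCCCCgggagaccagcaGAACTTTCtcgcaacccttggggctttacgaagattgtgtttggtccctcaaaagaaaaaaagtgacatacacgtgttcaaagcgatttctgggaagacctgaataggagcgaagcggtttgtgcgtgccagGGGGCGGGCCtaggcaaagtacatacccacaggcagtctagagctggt

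The Tnf window held 1 NF-kB pattern, 194 to 185 bases before the start, and a TATA box 29 to 24 bases before it. The Fas window held 2 NF-kB patterns, 1 AP-1 pattern and 1 heat shock element core. None of the searched letters were found in the printed windows of Tnfrsf21 and Tnfsf13b, and the TGANTCA of Tnfsf13b lay before its other start. The patterns are common: the NF-kB pattern occurs in 45.8% of the 32851 promoter windows of that length in the table, TATAAA in 12.4%, TGANTCA in 6.75% and GAANNTTC in 6.69%. Of the 31 members with a window, 21 held the NF-kB pattern, 6 TATAAA, 6 TGANTCA and 3 GAANNTTC in at least 1 window, and none held TGATGCAA (0.79% of all windows) or TGACGTCA (1.55%). Counted by window, as those percentages are, 22 of the 35 windows of members held the NF-kB pattern, 6 TATAAA, 6 TGANTCA and 3 GAANNTTC. A match is a stretch of letters and not a measured site, and no binding was measured in this study.

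The groups did not overlap in 11 of 39 members, or 28.2%, where 15.6% of all probe sets showed no overlap. The share among all probe sets brighter than most olfactory receptor genes, best known from the nose, was 22.1%, and among the 29 members above that level it was 31.0%. The mark is the 95th percentile of the mean levels of 1082 olfactory receptor probe sets, 3.84 on the log2 scale, and serves as a rough background level. Higher without overlap were 7 members (Tnf, Tnfrsf21, Tnfsf18, Cd40, Tnfrsf22, Lta and Tnfrsf11a), or 17.9%, where 7.12% of all probe sets were. Lower without overlap were 4 (Tnfsf13b, Fas, Tnfrsf13b and Tnfrsf14), or 10.3%, where 8.44% of all probe sets were. Among the 29 members above the olfactory receptor level 17.2% were higher and 13.8% lower without overlap. Of all probe sets above that level 9.72% were higher and 12.4% lower. All 11 kept the sign of their difference in every setting tried that tested them. After each array was centred on its median, 7 members did not overlap, among them Tnf, Tnfsf13b, Tnfrsf21, Tnfsf18 and Tnfrsf14 of these 11, and the share of all probe sets was 12.7%. After a further quantile normalization there were 8, 7 higher and 1 lower, and 17.0% of all probe sets (8.47% higher and 8.53% lower).

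**Figure D2:**
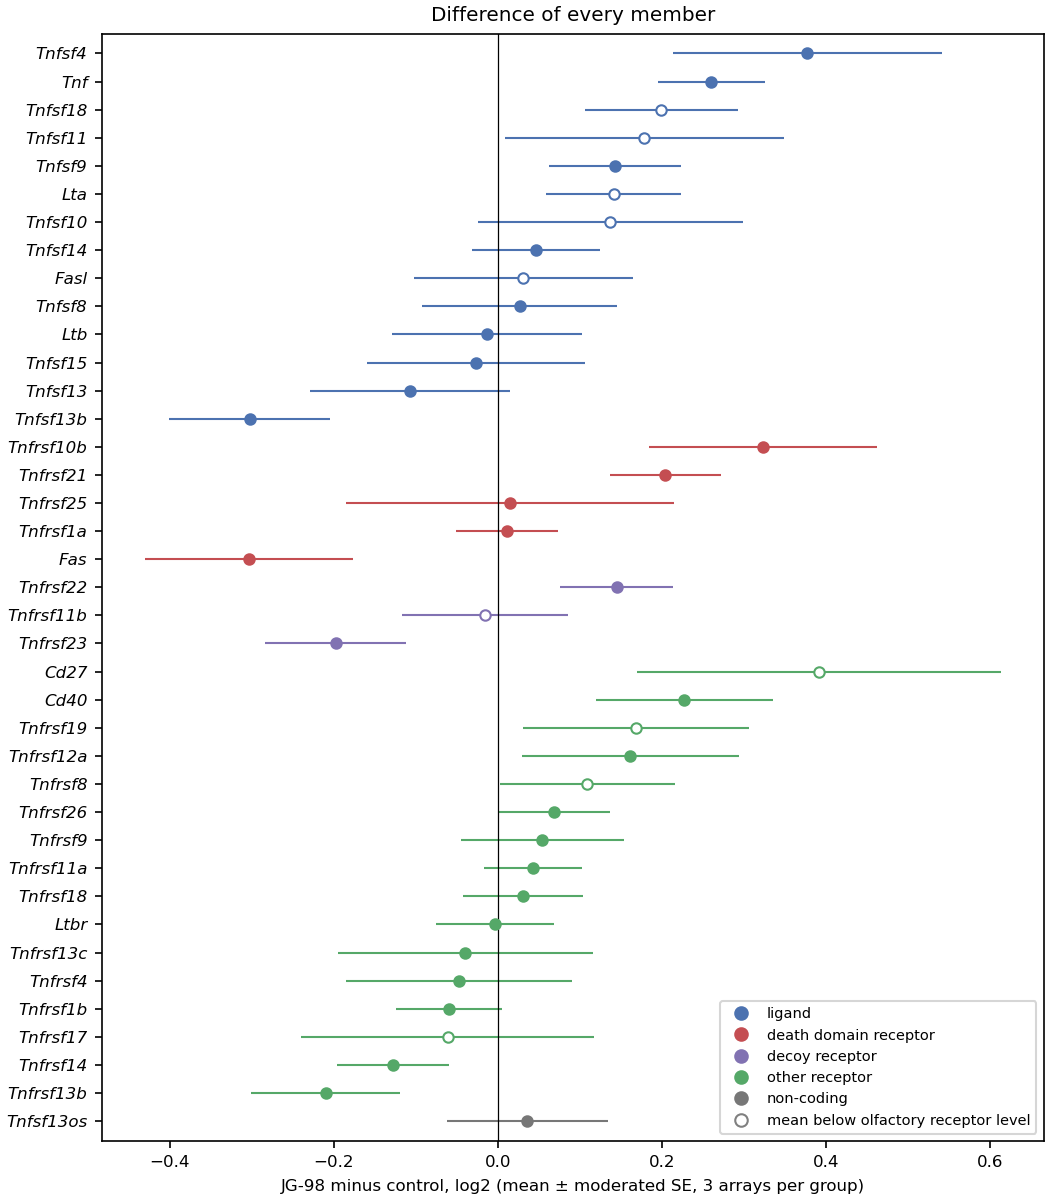
JG-98 minus control on the log2 scale (points) with the moderated SE (bars) for all 39 members, coloured by role. Open points mark the 10 members whose mean lay below the olfactory receptor level of 3.84. All values lie between -0.30 and 0.39.

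Among the 14 ligands, 10 had a difference above 0 and 4 below, with a median of 0.09. Tnfsf18, the GITR ligand, was at 1.71, 1.49 and 1.77 in controls and 1.80, 1.84 and 1.93 with JG-98. Lta, the soluble lymphotoxin that shares the Tnf receptors, was at 3.41, 3.66 and 3.57 in controls and 3.67, 3.68 and 3.71 with JG-98. The groups did not overlap for either gene, but both lay below the olfactory receptor level, where a signal cannot be told from background (limma unadjusted p = 0.071 and 0.13). Tnfsf9, the 4-1BB ligand, was at 6.29, 6.26 and 6.46 in controls and 6.42, 6.50 and 6.51 with JG-98. Control replicate 3 lay within the JG-98 range, and the difference was 0.14 ± 0.080 (limma unadjusted p = 0.12). Tnfsf14, or LIGHT, a ligand of Ltbr and Tnfrsf14, overlapped fully, at 4.39, 4.50 and 4.32 against 4.37, 4.48 and 4.51. Its difference was 0.05 ± 0.078 (limma unadjusted p = 0.57).

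The OX40 ligand Tnfsf4, named after its values were seen, had the largest difference of any ligand. It was at 4.18, 3.84 and 3.68 in controls and 4.47, 4.32 and 4.03 with JG-98, so control replicate 1 lay above JG-98 replicate 3. The difference was 0.38 ± 0.16 (limma unadjusted p = 0.057, adjusted p = 0.62), and 0.50 without JG-98 replicate 3 (limma unadjusted p = 0.022, adjusted p = 0.38). Its mean level, 4.09, is little above the background mark. The other ligands differed by -0.11 to 0.18, with unadjusted p from 0.33 to 0.91 in limma. They were Tnfsf13 (APRIL), Tnfsf8 (the CD30 ligand), Ltb (the membrane anchor of lymphotoxin), Tnfsf15 (TL1A), Tnfsf10 (TRAIL), Tnfsf11 (the RANK ligand) and Fasl. The mean levels of Tnfsf10, Tnfsf11 and Fasl, 2.14, 2.60 and 2.83, were below the background mark. Tnfsf13os differed by 0.04 ± 0.098 and Tnfsf13 by -0.11 ± 0.12. The strand that these probes read was not known here.

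Of the 5 death domain receptors, Tnfrsf21 and Fas are described above. Tnfrsf1a, the TNF receptor that most cell types carry, was at 9.74, 9.77 and 9.82 in controls and 9.80, 9.81 and 9.76 with JG-98. The arrays of the groups interleaved over a narrow range. The difference was 0.01 ± 0.062, with a 95% interval of -0.14 to 0.16. Tnfrsf10b, the mouse TRAIL receptor and in other cells a known target of the stress factor CHOP, was at 4.62, 4.89 and 4.53 in controls and 5.18, 5.06 and 4.78 with JG-98. Control replicate 2 lay above JG-98 replicate 3, and all other JG-98 values lay above all controls. The difference was 0.32 ± 0.14, a 1.25-fold higher level (limma unadjusted p = 0.055, adjusted p = 0.62). Without JG-98 replicate 3 it was 0.44 (limma unadjusted p = 0.014, adjusted p = 0.37), and over all settings its adjusted p ran from 0.23 to 0.85. Tnfrsf25, or DR3, the receptor of Tnfsf15, differed by 0.01 ± 0.20, and by -0.19 without JG-98 replicate 3.

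The decoy receptors of TRAIL in the mouse, Tnfrsf22 and Tnfrsf23, lie beside each other and beside Tnfrsf26 in the genome with no coding gene between them. Their differences had opposite signs. Tnfrsf22 was at 6.17, 6.31 and 6.27 in controls and 6.42, 6.40 and 6.36 with JG-98, without overlap. The difference was 0.15 ± 0.069 (limma unadjusted p = 0.075). Tnfrsf23, named after its values were seen, was at 8.43, 8.63 and 8.58 in controls and 8.46, 8.31 and 8.28 with JG-98. Only JG-98 replicate 1 lay within the control range, and the difference was -0.20 ± 0.086 (limma unadjusted p = 0.057). Subtracting Tnfrsf23 from Tnfrsf22 within each array gave -2.30 ± 0.028 (SD, n = 3) in controls and -1.96 ± 0.075 (SD, n = 3) with JG-98. That shift of 0.34 belongs to a pair picked after its values were seen, so no p-value is given for it. These genes are close relatives, and how far their probes are shared was not tested. Tnfrsf26 differed by 0.07 ± 0.068. Tnfrsf11b, the soluble decoy osteoprotegerin, lay below the background mark and differed by -0.02 ± 0.10.

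The other 16 receptors, mostly those that signal through TRAF adaptors, had 9 differences above 0 and 7 below, with a median of 0.04. Tnfrsf1b, the TNF receptor of immune and endothelial cells, was at 9.58, 9.56 and 9.47 in controls and 9.51, 9.46 and 9.46 with JG-98. The difference was -0.06 ± 0.065, with a 95% interval of -0.21 to 0.10 (limma unadjusted p = 0.39). Ltbr, the receptor of lymphotoxin and LIGHT, was at 7.52, 7.54 and 7.57 in controls and 7.50, 7.48 and 7.64 with JG-98. Its JG-98 arrays lay on both sides of the controls, with a difference of -0.003 ± 0.072.

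Cd40, through which T cells activate macrophages, was at 4.99, 4.62 and 4.87 in controls and 4.996, 5.04 and 5.13 with JG-98. The groups did not overlap, but control replicate 1 and JG-98 replicate 1 almost met, and the difference was 0.23 ± 0.11 (limma unadjusted p = 0.075). Tnfrsf13b, or TACI, a receptor of BAFF and APRIL, was at 4.79, 4.64 and 4.53 in controls and 4.52, 4.36 and 4.46 with JG-98. All its JG-98 values were the lower ones, and the difference was -0.21 ± 0.091 (limma unadjusted p = 0.057). Tnfrsf14, or HVEM, which binds LIGHT, was at 7.27, 7.29 and 7.36 in controls and 7.20, 7.11 and 7.24 with JG-98. It too was lower on each JG-98 array, by a difference of -0.13 ± 0.068 (limma unadjusted p = 0.11).

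Tnfrsf11a, or RANK, which macrophage precursors need to become osteoclasts, was at 8.22, 8.18 and 8.21 in controls and 8.27, 8.23 and 8.24 with JG-98. The groups did not overlap, yet the difference was 0.04 ± 0.060 (limma unadjusted p = 0.50), so the separation is one of small spread. Tnfrsf12a, or Fn14, was at 5.47, 5.23 and 5.19 in controls and 5.58, 5.21 and 5.59 with JG-98, and differed by 0.16 ± 0.13. Tnfrsf9, or 4-1BB, was at 4.16, 4.28 and 4.23 in controls and 4.17, 4.19 and 4.47 with JG-98, and differed by 0.05 ± 0.10. In both, JG-98 replicate 2 lay inside the control range. The remaining receptors of this group were Cd27, Tnfrsf4 (OX40), Tnfrsf8 (CD30), Tnfrsf13c (the BAFF receptor), Tnfrsf17 (BCMA), Tnfrsf18 (GITR) and Tnfrsf19 (TROY), with unadjusted p from 0.12 to 0.81 in limma. Cd27, Tnfrsf8, Tnfrsf17 and Tnfrsf19 were below the background mark.

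Ligands and their receptors can be set side by side. Tnf was 0.26 higher, while its receptors Tnfrsf1a and Tnfrsf1b differed by 0.01 and -0.06. Tnfsf13b differed by -0.30, and of its 3 receptors Tnfrsf13b differed by -0.21, Tnfrsf13c by -0.04 and Tnfrsf17 by -0.06. Fas differed by -0.30 and its ligand Fasl, below the background mark, by 0.03. Tnfrsf10b differed by 0.32 and its ligand Tnfsf10 by 0.14, also below the background mark. Differences between such pairs were not tested.

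The array of JG-98 replicate 3 bore on many of these values. It correlated with the others at 0.992 to 0.993 across probe sets, and the other 5 with each other at up to 0.996. Its median was 4.24, where the other arrays had 4.08 to 4.15. Among the 10 members below the background mark, this array was the highest of the 6 in 9, and its median excess over the other JG-98 arrays was 0.35. Of all probe sets below the mark it was the highest in 36.7%, with a median excess of 0.14. Among the 29 members above the mark it was the highest in 12, or 41.4%, where it was in 20.9% of all probe sets above it. Cd27, named after its values were seen, had the largest difference of all members, 0.39 ± 0.22, from JG-98 values of 1.96, 1.75 and 2.66 over controls of 1.71, 1.76 and 1.72. It was 0.12 without JG-98 replicate 3. Without that array no member passed, 5 had an unadjusted p under 0.05 (Tnf, Tnfrsf10b, Tnfsf4, Tnfsf13b and Tnfrsf21) where 11.3% of all probe sets did, and 15 did not overlap, the 11 among them, where 30.4% of all probe sets did not.

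**Figure D3:**
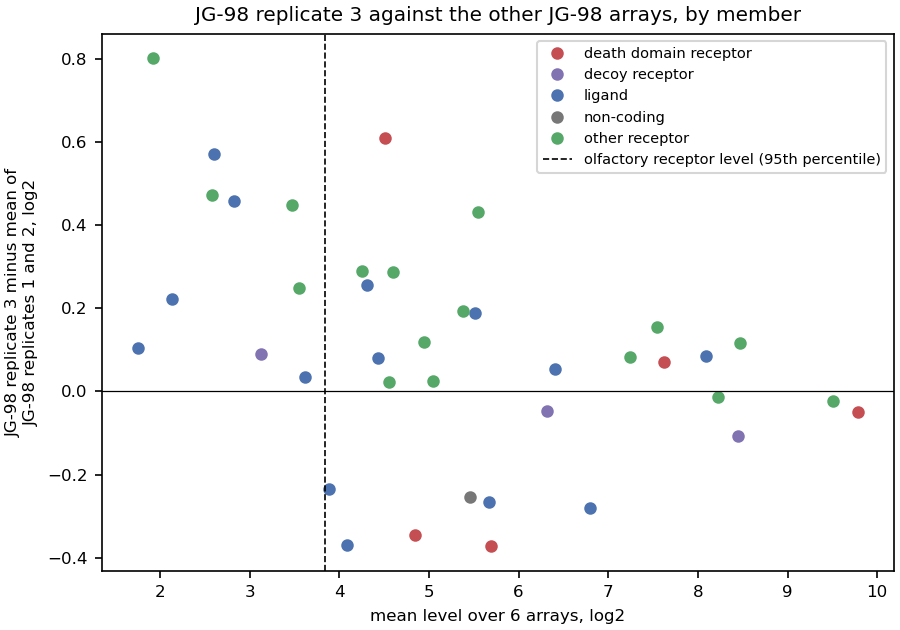
JG-98 replicate 3 minus the mean of JG-98 replicates 1 and 2 (vertical axis, log2) against the mean level over 6 arrays (horizontal axis, log2), 1 point per member, coloured by role. Every member left of the dashed background mark at 3.84 lies above 0.

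Other genes of the pathway were taken in 4 lists: adaptors and ligases at the receptor, the cell death arm, brakes, and the shedding of ligands and receptors. These lists were chosen with earlier results of these data known. Of 50 listed genes 45 were measured. In limma 0 passed, and 4 had an unadjusted p under 0.05, or 8.89%, where 8.32% of all probe sets did. The median of the 45 was -0.02, and 10 did not overlap, 4 higher and 6 lower. That is 22.2%, against 15.6% of all probe sets and 22.1% of those above the olfactory receptor level, where 44 of the 45 lie. By direction it is 8.89% higher and 13.3% lower, against 7.12% and 8.44% of all probe sets. Above the olfactory receptor level these were 9.72% and 12.4% of all probe sets. The 4 genes at an unadjusted p under 0.05 were Tnfaip3 and Tnip3, which were higher, and Traf5 and Birc3, which were lower. The 11 brakes as a list had 6 differences above 0 and 5 below, with a median of 0.01.

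Tnfaip3, the ubiquitin-editing enzyme A20 that restrains TNF receptor signalling, was at 6.29, 6.30 and 6.22 in controls and 6.48, 6.56 and 6.56 with JG-98. The groups were clearly apart. The difference was 0.26 ± 0.065 (limma unadjusted p = 0.0053, adjusted p = 0.37), the same size as that of Tnf. Tnip3, which binds A20, was at 7.75, 7.74 and 7.80 in controls and 7.86, 7.99 and 8.09 with JG-98. The difference was 0.22 ± 0.078 (limma unadjusted p = 0.029, adjusted p = 0.53). The unadjusted p of Tnip3 was under 0.05 in 8 of the 15 settings, with a range of 0.0068 to 0.079, and that of Tnfaip3 in 15. The other 9 brakes, among them Cyld, Otulin and Zfp36, had unadjusted p from 0.36 to 0.85 in limma.

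Among the 19 measured adaptors and ligases, 7 differences were above 0 and 12 below. Traf5, a TRAF adaptor, was at 5.44, 5.52 and 5.47 in controls and 5.23, 5.36 and 5.19 with JG-98, a difference of -0.22 ± 0.073 (limma unadjusted p = 0.022). Birc3, or cIAP2, an inhibitor of apoptosis protein that ubiquitinates receptor-bound kinases, was at 7.47, 7.39 and 7.26 in controls and 7.17, 7.20 and 7.21 with JG-98. All its JG-98 values were the lower ones, and the difference was -0.18 ± 0.075 (limma unadjusted p = 0.049, adjusted p = 0.60). The unadjusted p of Birc3 was under 0.05 in 6 of the 15 settings, with a range of 0.020 to 0.15, and that of Traf5 in 11. The groups of Birc2, Tradd and Ikbkg did not overlap either, but their unadjusted p in limma was 0.068 to 0.088. In the cell death arm none of 8 measured genes separated. The smallest unadjusted p in that list was 0.093, and its differences ran from -0.22 to 0.08, with Casp8, Fadd, Cflar and Mlkl all within 0.08 of 0 and Ripk3 the lowest. In the shedding list Adam17, which releases Tnf from the membrane, differed by -0.12 ± 0.086. The groups of its trafficking partners Frmd8 and Rhbdf2 did not overlap, at -0.15 ± 0.070 and 0.11 ± 0.068 (limma unadjusted p = 0.073 and 0.16). They are 2 of 7 in that list, or 28.6%, where 15.6% of all probe sets and 22.1% of those above the olfactory receptor level did not overlap.

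**Figure D4:**
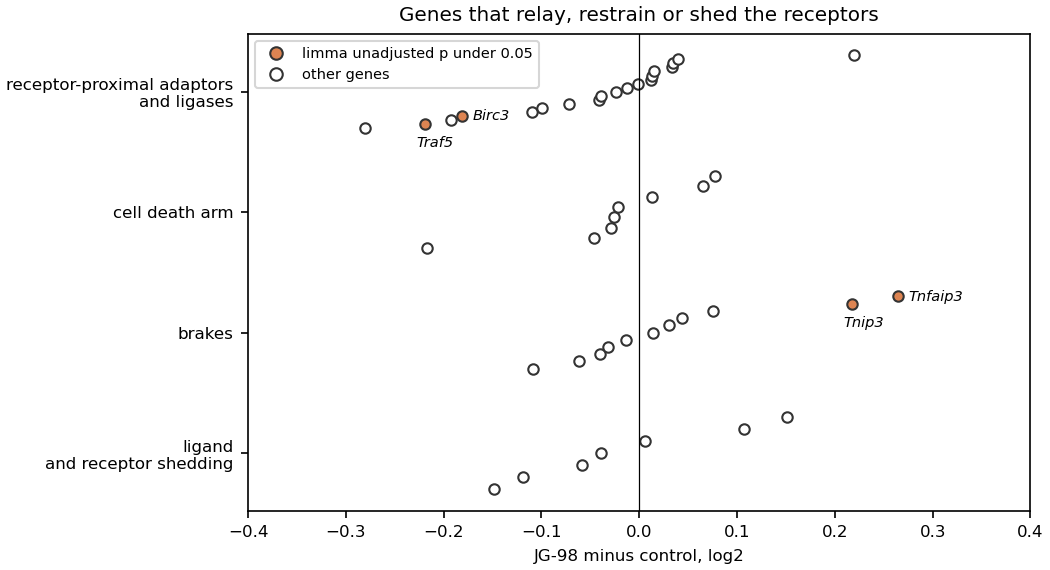
JG-98 minus control (horizontal axis, log2) for 45 genes in 4 lists, 1 point per gene, ordered by value within each list. Filled points have a limma unadjusted p under 0.05, with Tnfaip3 and Tnip3 above 0 and Traf5 and Birc3 below.

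Some members are neighbours in the genome, with no coding gene between them in RefSeq's order, and their values are given side by side, with no test between them. Beside Tnf at 0.26, Lta was at 0.14 and Ltb at -0.01. Tnfsf4, Tnfsf18 and Fasl, in a row, were at 0.38, 0.20 and 0.03. Tnfrsf4 and Tnfrsf18, side by side, were at -0.05 and 0.03, Tnfrsf1b and Tnfrsf8 at -0.06 and 0.11, and Tnfsf15 and Tnfsf8 at -0.03 and 0.03.

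Of the 7 macrophage markers 3 separated, or 42.9%, where 22.1% of all probe sets above the olfactory receptor level did. They were Mertk at -0.22 (limma unadjusted p = 0.015), Csf1r at -0.09 and Cd68 at 0.06. Only Mertk had an unadjusted p under 0.05, or 14.3% of the 7, where 11.0% of all probe sets above that level did. In limma 0 of 7 passed. Markers of other cells were mostly dim. The mean was below the background mark in 5 of 5 dendritic cell, 5 of 5 neutrophil, 4 of 4 mast cell and basophil, 3 of 4 B cell, 4 of 6 T and NK cell, 3 of 5 stromal, 1 of 4 endothelial and 1 of 4 osteoclast markers. The log2 of the summed signal of the B cell markers was 4.96 to 4.998 in controls and 4.67 to 5.35 with JG-98, and that of the T and NK cell markers 6.93 to 7.18 and 6.86 to 7.31. The endothelial sum was 6.44 to 6.50 in controls and 6.51 to 6.56 with JG-98, and the sums of all other lists overlapped. No endothelial marker passed or separated alone, and 3 of their differences were above 0 and 1 below. Below the background mark, the B cell marker Ms4a1 separated at 0.28 (limma unadjusted p = 0.0046, adjusted p = 0.36) and the stromal marker Dcn at -0.18 (limma unadjusted p = 0.048, adjusted p = 0.59). No other marker below the mark separated, and 7.63% of all probe sets below it did. The B cell markers had 2 differences above 0 and 2 below, and the stromal markers 2 above and 3 below. The part of these markers in the values of the members was not tested.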

How the data were processed

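Biotin-labelled RNA of the 6 samples went onto 1 array each, per the labels' protocols. The files hold the authors' log2 expression, a single value for a probe set on an array. The submitters' processing notes list RMA, affy and R 2.15.1 but not what each did. RMA as generally defined normalizes arrays against each other and compresses differences of dim probe sets. For the genome build, the sources used here give nothing. All 25206 probe sets have an Entrez gene number. The platform annotation gives 1 symbol for 23185 of them, updated through RefSeq GRCm38.p6, and the other 2021 were tested and are not named.

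The test was that of limma 3.58.1 (R 4.3.3), fitted on every probe set without covariates by lmFit and eBayes. It was two-sided, with Benjamini-Hochberg adjustment at 0.05, and had 4 residual and 2.59 prior degrees of freedom. It was first run on simulated data drawn from its own variance model. No simulated array stood apart, so that run cannot show how well the test suits these arrays. The symbol rule for the members used no measured value, but it and the lists were set with earlier results of these data known. Array values are given for members whose groups did not overlap and for 8 more fixed by name (Tnfrsf1a, Tnfrsf1b, Ltbr, Tnfrsf10b, Tnfsf9, Tnfrsf9, Tnfrsf12a and Tnfsf14), and, from the 4 pathway lists and a list of superfamily genes outside the symbol pattern, for genes at an unadjusted p under 0.05 without overlap. Any other gene with array values is said to be named after its values were seen. Alternatives were 2 normalizations, filters at 2 levels of signal, a trend of the variance with intensity, a robust prior, array weights (statmod 1.5.0), the replicate number as a block, and leaving out each array. The number of arrays limits the precision.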

Additional observations from a re-analysis of the deposited data

How the results depend on the processing

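No member passed in 14 of 15 settings, and Tnf passed with an intensity trend, when 1 member did. The number of members at an unadjusted p under 0.05, 4 with all arrays, was 2 after median centring (5.9% of all probe sets), 7 of 29 tested above the olfactory receptor level (14.0%), 8 of 27 above the median level (15.5%), 7 with an intensity trend (10.3%) and 7 with array weights (13.5%). It was 2 to 6 when 1 array was left out (6.25% to 11.3% of all probe sets). There were 2 without control replicate 2 (6.25%) or JG-98 replicate 1 (6.72%). The 11 members without overlap became 7 after median centring, and 13 to 15 with 1 array left out (23.3% to 30.4% of all probe sets), where fewer arrays make separation easier. Of the 39 members, 16 changed sign in at least 1 setting, none of them among those 11. Of the 45 pathway genes, 4 had an unadjusted p under 0.05, where 8.32% of all probe sets did. There was 1 after median centring (5.9% of all probe sets), and there were 7 with an intensity trend (10.3%). With 1 array left out there were 1 to 4 (6.25% to 11.3% of all probe sets), with 2 without control replicate 1 or 3 and 1 without control replicate 2. Over all probe sets 10 passed, with 45 above the olfactory receptor level, 90 above the median level, 254 with an intensity trend, 25 with array weights, and 0 to 5 with 1 array left out. At an unadjusted p under 0.05 there were 2097, with 3406 under array weights and 1576 to 2847 with 1 array left out. Groups did not overlap in 3923, and in 5874 to 7658 with 1 array left out. With the replicate number as a block 0 probe sets and 0 members passed, and 5 members had an unadjusted p under 0.05, as did 7.36% of all probe sets. Deviations of arrays with the same number correlated at 0.095, -0.13 and 0.10, so the numbers are not shown to pair the samples. The cause of these shifts was not tested.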

Other observations

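Superfamily genes whose symbols lie outside the selection were measured too. Ngfr, the p75 neurotrophin receptor with a death domain, was at 3.98, 3.75 and 3.83 in controls and 4.39, 4.10 and 4.30 with JG-98, just above the olfactory receptor level. All JG-98 values were above all control values. The difference was 0.41 ± 0.10, a 1.33-fold higher level (limma unadjusted p = 0.0062, adjusted p = 0.39), and 0.39 without JG-98 replicate 3. The Cd40 ligand gene Cd40lg, the Cd27 ligand gene Cd70, Relt, Eda, Edar and Eda2r differed by -0.13 to 0.22, with unadjusted p from 0.074 to 0.86 in limma.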
